A study of Macaca mulatta with 24 samples.

Results

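The angiotensin and bradykinin system is represented by AGT, ACE, AGTR1, AGTR2, BDKRB1 and BDKRB2. These 6 genes of the angiotensin and bradykinin system were followed in 24 arrays of single layers of the lateral geniculate nucleus (LGN) of the rhesus macaque. The genes were chosen by family, with the difference between deprived and nondeprived layers in these same arrays already known, so that their deprivation values are given as a description, with no test. The platform annotation assigned 9 of 52766 noncontrol probe sets to 5 of the 6 genes, 1 to AGT, 2 to AGTR1, 3 to AGTR2, 2 to BDKRB1 and 1 to BDKRB2; no probe set was assigned to ACE, which was not analysed here. A signal of 100, the minimum for intensities that the study used, had to be reached on 1 array or more for a probe set to be tested, and 6 of the 9 met this, against 37623 of the 52766.

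The study asked how visual deprivation of 1 eye from birth changes gene expression in the LGN layers that this eye drives. One animal wore an opaque contact lens for 2 months and the other had its lids closed by tarsorrhaphy for 4 months, so that duration, method and animal cannot be told apart. Both LGNs of both animals were sectioned, and each of the 6 layers was captured by laser, its RNA pooled over sections, amplified in 2 rounds and hybridized to 1 Rhesus Macaque Genome Array. In the LGN on the side of the deprived eye layers 2, 3 and 5 are the deprived ones, and in the opposite LGN layers 1, 4 and 6 are. The groups are therefore 8 arrays of deprived parvocellular layers (3 to 6), 8 of nondeprived parvocellular layers, 4 of deprived magnocellular layers (1 and 2) and 4 of nondeprived magnocellular layers. The nondeprived layers belong to the same deprived animals, and the arrays of 1 LGN are layers of 1 nucleus, so that p-values measure the spread among layers of 4 LGNs from 2 animals. Signals are in arbitrary units and cannot be set against each other between probe sets. In a captured layer, fewer cells of a type and less RNA per cell cannot be told apart.

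AGT encodes angiotensinogen, the precursor that renin and then the angiotensin-converting enzyme ACE cut to angiotensin II. In the brain angiotensinogen is made mainly by astrocytes. ACE also inactivates bradykinin, the peptide that kallikreins release from kininogen, so that both peptide systems share an enzyme. Angiotensin II acts on the receptors encoded by AGTR1 and AGTR2, and kinins act on those encoded by BDKRB1, which tissue injury induces, and BDKRB2, which is present without it. AGTR1 and both kinin receptors signal mainly through Gq proteins, phospholipase C and inositol trisphosphate.

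Of 11 listed general neuron markers 5 were measured, and all 5 reached 100 in every group, as did both measured markers of GABAergic neurons. The arrays shared a trimmed mean signal of about 500.04, and 40.6 to 57.1% of probe sets per array read 100 or more. The array of deprived magnocellular layer 2 in the ipsilateral LGN at 2 months stood apart. Across probe sets its mean correlation with other arrays was 0.811, where the remaining arrays had 0.885 to 0.919, and its GAPDH 3′ to 5′ signal ratio, a measure of RNA integrity, was 50.8, against 1.97 to 14.3. Magnocellular values of the members are given below with and without it.

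AGT was higher in deprived than in nondeprived layers of both classes and higher in parvocellular than in magnocellular layers, and its 4 groups did not overlap. In deprived parvocellular layers the AGT signal was 3859 at its lowest, 4775 at the median and 7052 at its highest. In nondeprived parvocellular layers it was 1897, 3005 and 3608. In deprived magnocellular layers the 4 signals were 1316 and 1010 in layer 1 and 1492 and 1755 in layer 2, in each case at 2 and then 4 months. In nondeprived magnocellular layers they were 290 and 295 in layer 1 and 500 and 269 in layer 2. Every deprived layer was thus above every nondeprived layer of its class, and every parvocellular array was above every magnocellular one. Among the 37623 probe sets AGT was the only one whose 4 groups fell apart without overlap in any order (0.00266%), and the order was deprived parvocellular, nondeprived parvocellular, deprived magnocellular and nondeprived magnocellular from high to low. This order includes the deprivation contrast and is a description.

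**Figure D1:**
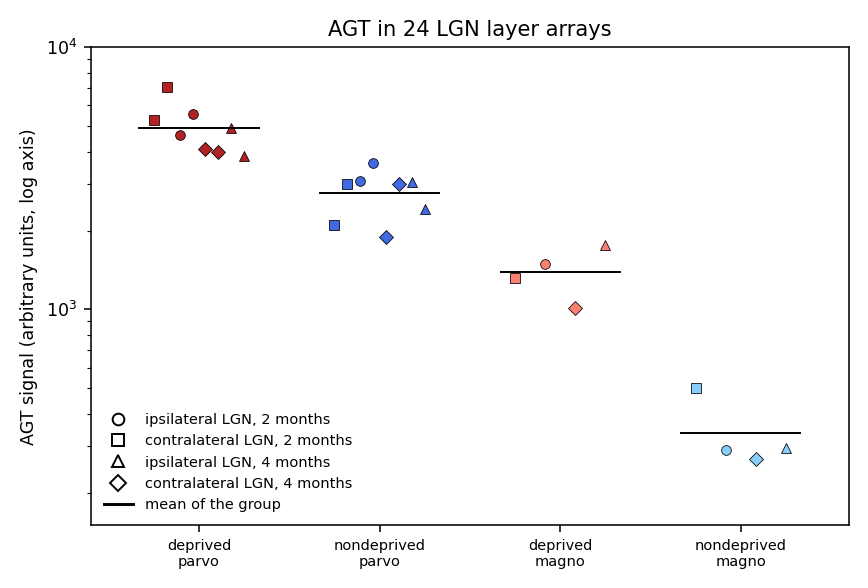
AGT signal (arbitrary units, log axis) in the 8 deprived and 8 nondeprived parvocellular and 4 deprived and 4 nondeprived magnocellular arrays; each symbol is 1 array, its shape gives the LGN and the line is the mean of the group. The group means are 4926, 2773, 1393 and 339, and no 2 groups overlap.

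In parvocellular layers the AGT signal averaged 4926 ± 1057 in deprived and 2773 ± 578 in nondeprived layers (SD, n = 8 each), a log2 difference of 0.83 (SE 0.13), or 1.78-fold. All 8 pairs of neighbouring layers within an LGN (3 with 4 and 5 with 6) had the higher signal in the deprived layer, with ratios of 1.34 to 2.51. In magnocellular layers the signal averaged 1393 ± 312 in deprived and 339 ± 108 in nondeprived layers (SD, n = 4 each), a log2 difference of 2.06 (SE 0.31), or 4.17-fold, and all 4 pairs pointed up, with ratios of 2.63 to 5.95. Without the array that stood apart the magnocellular log2 difference was 1.96. Over 4 LGNs the parvocellular ratio of deprived to nondeprived layers was 1.52 in the ipsilateral and 2.42 in the contralateral LGN at 2 months, and between these values in both LGNs at 4 months. The parvocellular effect was smaller than the magnocellular one by 1.23 on the log2 scale (SE 0.25), and the nondeprived magnocellular signals were the lowest of all. The effect at 4 months minus that at 2 months was -0.21 (SE 0.26) in parvocellular layers, less than its error. Every parvocellular deprived array was above every nondeprived one for 0.093% of the probe sets tested, and every magnocellular one for 2.78%. As background over all probe sets, 0.97% passed the threshold of limma for deprivation in parvocellular layers, 0.585% as higher. For deprivation in magnocellular layers 0% passed, with 2138 probe sets at an unadjusted p under 0.05. The magnocellular model did not recover changes planted in simulated data, so that a lack of calls for deprivation there is not read as a lack of change.

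The level of AGT between layer classes was not the contrast that brought these genes up, and it was tested. AGT, over all 24 arrays and balanced for deprivation, was 5.42-fold higher in parvocellular than in magnocellular layers, a log2 difference of 2.44 (SE 0.13, adjusted p = 3.48e-12, limma). The range was 1897 to 7052 in 16 parvocellular arrays and 269 to 1755 in 8 magnocellular arrays, without overlap, a separation found for 0.0505% of the probe sets. Of all probe sets, 2.25% passed as higher in parvocellular layers and 3.6% passed in either direction. Within deprived layers alone the AGT log2 difference of parvocellular over magnocellular layers was 1.82 (SE 0.18, adjusted p = 2.45e-04, limma), where 0.229% of probe sets passed. Within nondeprived layers alone it was 3.05 (SE 0.20, adjusted p = 2.73e-06, limma), or 8.29-fold, where 1.25% passed. The class difference thus held in both conditions, larger in the nondeprived one by the same 1.23 that separates the 2 deprivation effects. The genes were chosen with the deprivation difference known, which can shift the signals of a single condition. The single-condition values, here and for BDKRB2 below, are therefore a description, and their p-values are no separate support.

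Single layers could be followed with 2 arrays each in each condition, 1 per animal. Deprived layers 3, 4, 5 and 6 averaged AGT signals of 4775, 4689, 4712 and 5528, close to each other beside a spread of 3859 to 7052. Nondeprived layers 4, 5 and 6 averaged 3076, 3005 and 3009, and nondeprived layer 3 averaged 2000. The 2 arrays of nondeprived layer 3, with 1897 and 2103, were the lowest of all parvocellular arrays. Nondeprived layer 3 is found only in the contralateral LGNs, where nondeprived layer 5 read 3013 and 2998. Nondeprived layers 4 and 6 lie in the ipsilateral LGNs, so that layer and side cannot be told apart between them and layer 3. In the test of outer (layers 5 and 6) against inner (layers 3 and 4) parvocellular layers, AGT differed by 0.17 (SE 0.13, adjusted p = 0.697, limma). No probe set passed in that comparison (0%), with 3377 at an unadjusted p under 0.05. In magnocellular layers, deprived layer 2 averaged 1624 and deprived layer 1 averaged 1163, while nondeprived layers 2 and 1 averaged 385 and 292. With 2 arrays each, and the deprived layers 1 and 2 lying in opposite LGNs, layer and side cannot be told apart there.

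**Figure D2:**
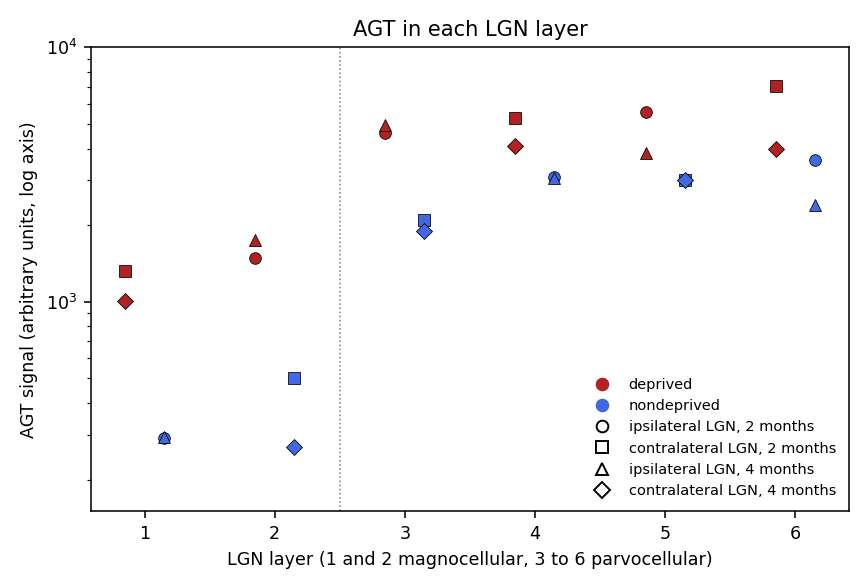
AGT signal (arbitrary units, log axis) by LGN layer, with layers 1 and 2 magnocellular and 3 to 6 parvocellular; each symbol is 1 array, red deprived and blue nondeprived, with the shape giving the LGN. In each layer both deprived arrays lie above both nondeprived arrays, and nondeprived layer 3 (1897 and 2103) is the lowest of the parvocellular layers.

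Astrocyte markers were read beside AGT because astrocytes are its usual source. Of 13 listed markers 11 were measured, and 10 of them reached 100 in at least 1 array of every group, the other being SOX9, which stayed under 100 in all nondeprived magnocellular arrays. Their summed signal in parvocellular layers was 87049 to 122096 where deprived and 84608 to 114828 where nondeprived, and in magnocellular layers 105171 to 155459 where deprived and 88814 to 123971 where nondeprived. The sums overlapped between all 4 groups. In parvocellular layers 9 of 11 markers had a positive difference between deprived and nondeprived layers, with a median of 0.22 against -0.0024 for all genes, and 1 passed the test. This was GFAP, the intermediate filament of astrocytes, with 3470 to 13218 in deprived and 2616 to 4165 in nondeprived layers and a log2 difference of 1.07 (SE 0.21, adjusted p = 0.0184, limma). In magnocellular layers 8 of 11 had a positive difference, with a median of 0.28 against 0.05 for all genes, and none passed, with 1 (GFAP) at an unadjusted p under 0.05. Between layer classes 3 of 11 markers had a positive difference, the sign of AGT, and the median of the markers was negative. The median log2 difference of the markers between parvocellular and magnocellular layers was -0.16 against -0.01 for all genes, none passed as higher, and GLUL, the glutamine synthetase of astrocytes, passed as lower (log2 difference -0.32, SE 0.09, adjusted p = 0.0352, limma). With the log2 sum of the markers as a covariate the AGT log2 difference was 0.82 for deprivation in parvocellular layers, 2.05 in magnocellular layers and 2.44 between parvocellular and magnocellular layers. Bright markers such as ALDOC carry this sum. ALDOC averaged 21401 in deprived and 22064 in nondeprived parvocellular layers, where GFAP averaged 7563 and 3283. The sum thus follows GFAP only in part, so that this fit is a description. Among markers of other cells, the summed signals of 5 fibroblast markers in parvocellular layers were 1106 to 2372 where deprived and 964 to 1845 where nondeprived. In magnocellular layers they were 1345 to 2126 where deprived and 935 to 1148 where nondeprived, without overlap. Of single probe sets 2.78% had every deprived magnocellular array above every nondeprived one. All 5 had a positive difference in both classes, with medians of 0.32 and 0.79, and none passed. Of 9 microglia markers 8 had a positive difference for deprivation in parvocellular layers, with a median of 0.26, and none passed, with 2 at an unadjusted p under 0.05 in limma. Their summed signal there was 6742 to 9338 where deprived and 5708 to 8221 where nondeprived, and CX3CR1 and TMEM119 stayed under 100 in all nondeprived parvocellular arrays. In magnocellular layers 5 of the 9 microglia markers had a positive difference, with a median of 0.20, and none passed. The median microglia sums there were 8551 where deprived and 8829 where nondeprived. Of 6 measured markers of mural cells 5 had a positive difference in each class, with medians of 0.15 in parvocellular and 0.46 in magnocellular layers, and none passed. The mural sums in magnocellular layers were 1558 to 2477 where deprived and 1285 to 1784 where nondeprived. The 2 markers of GABAergic neurons likewise summed to 18450 to 24464 in deprived and 14408 to 16724 in nondeprived magnocellular layers. General neuron markers went the other way, with 1 of 5 positive and a median of -0.07 in each class, and none passed. Of 9 measured endothelial markers 6 were positive in parvocellular and 5 in magnocellular layers, with medians of 0.01 and 0.02, and none passed. Of 4 measured oligodendrocyte markers 4 and 3 were positive, with medians of 0.15 and 0.27, and none passed. The part of GFAP and of these cells in the AGT and BDKRB2 differences was not tested.

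**Figure D3:**
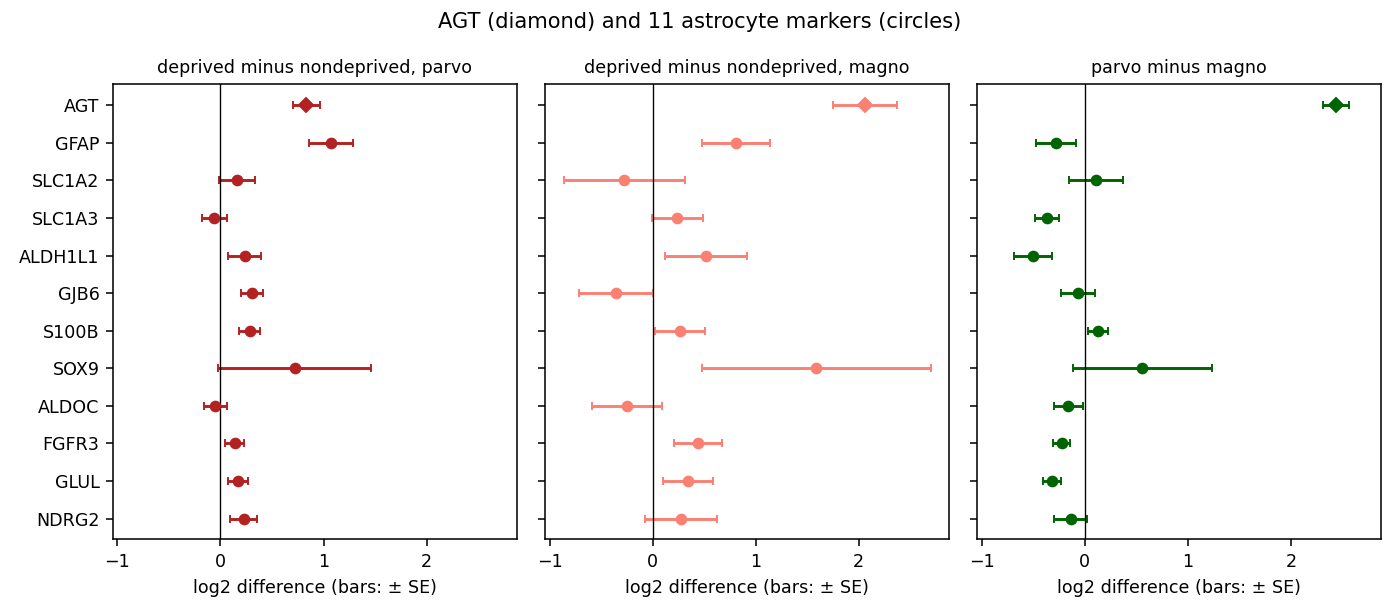
Log2 difference (bars, SE) of AGT (diamond) and 11 astrocyte markers (circles) between deprived and nondeprived parvocellular layers, deprived and nondeprived magnocellular layers, and parvocellular and magnocellular layers. AGT lies at 0.83, 2.06 and 2.44; GFAP lies at 1.07, 0.81 and -0.28.

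AGTR1, the main receptor of angiotensin II, was read by 2 probe sets that gave different pictures. The probe set MmugDNA.18704.1.S1_at reached 100 in 15 of 24 arrays. In deprived magnocellular layers its signals were 127, 118, 138 and 138, against 59.3, 91.4, 66.5 and 96.3 in nondeprived magnocellular layers of the same LGNs. All 4 deprived arrays were above and all 4 nondeprived arrays below 100, and the groups did not overlap, as was the case for 2.78% of probe sets. The log2 difference was 0.76 (SE 0.44), 0.65 without the array that stood apart, and 0.48 after quantile normalization or after scaling to equal medians. The median of all probe sets in this comparison was 0.13 as deposited and -0.15 after scaling to equal medians. In parvocellular layers the same probe set read 63.0 to 203 (median 104) in deprived and 77.4 to 188 (median 104) in nondeprived layers, a log2 difference of -0.09 (SE 0.23). Its highest parvocellular signals were those of layers 5 and 6 at 4 months, at 188 and 203 in deprived and 188 and 174 in nondeprived layers. Between parvocellular and magnocellular layers it differed by 0.17 (SE 0.20, adjusted p = 0.738, limma) and between outer and inner parvocellular layers by 0.36 (SE 0.22, adjusted p = 0.624).

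The other AGTR1 probe set, MmugDNA.4851.1.S1_at, reached 100 in 6 arrays and did not separate the groups. In parvocellular layers it read 41.5 to 119 where deprived and 1.69 to 146 where nondeprived, and in magnocellular layers 125, 102, 41.1 and 70.9 in deprived against 46.3, 84.0, 71.1 and 33.8 in nondeprived arrays. Its log2 difference between deprived and nondeprived layers was 0.41 (SE 0.62) in parvocellular and 0.50 (SE 0.57) in magnocellular layers, and it was 0.19 in magnocellular layers without the array that stood apart. Of the 4 magnocellular LGN pairs 3 were higher in the deprived layer for this probe set, against 4 of 4 for the other one. It differed by -0.16 (SE 0.49, adjusted p = 0.915, limma) between layer classes and by -0.97 (SE 0.59, adjusted p = 0.630) between outer and inner layers.

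AGTR2, the other angiotensin II receptor, read below the minimum in every layer. Its 3 probe sets had highest signals of 60.3, 49.4 and 21.9 over 24 arrays and medians of 10.6, 4.14 and 5.52, and were not tested.

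BDKRB2, the constitutive bradykinin receptor, was the other gene with higher signals in deprived layers of both classes. In deprived parvocellular layers the signal was 85.7 at its lowest, 119 at the median and 219 at its highest, and 5 of 8 arrays reached 100. In nondeprived parvocellular layers it was 12, 49.8 and 99.3, and none of 8 reached 100. The groups overlapped only in that the highest nondeprived array (contralateral layer 5, 4 months, 99.3), was above 3 deprived arrays. The log2 difference was 1.73 (SE 0.38), or 3.32-fold, and 7 of 8 layer pairs and 4 of 4 LGNs pointed up. With signals under 50 set to 50 the parvocellular log2 difference was 1.17, since most nondeprived signals lie near or below that value.

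In magnocellular layers BDKRB2 read 12.7, 112, 52.3 and 56.0 in deprived layers, against 6.76, 13.3, 22.3 and 16.5 in nondeprived layers of the same LGNs. Each deprived layer was above its partner, but 1 of 8 arrays reached 100, and the groups overlapped through the array that stood apart, at 12.7. The log2 difference was 1.74 (SE 0.88), 2.02 without that array and 0.35 with signals under 50 set to 50, so that its size rests on signals below the minimum. The parvocellular difference minus the magnocellular one was -0.01 (SE 0.71), with an error that leaves either one larger. All 6 arrays in which BDKRB2 reached 100 were of deprived layers, so that the minimum was met only where the signal is high.

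BDKRB2 also read higher in parvocellular than in magnocellular layers, on signals mostly below the minimum. It entered the test only through 5 deprived parvocellular arrays and 1 deprived magnocellular array that reached 100. Its class difference is therefore a description, and the p-values below are no separate support. Over all arrays its signal averaged 92.7 ± 61.7 in parvocellular and 36.4 ± 35.5 in magnocellular layers (SD, n = 16 and 8), a log2 difference of 1.53 (SE 0.36, adjusted p = 0.0132, limma). Within deprived layers alone BDKRB2 differed by 1.52 (SE 0.42, adjusted p = 0.199, limma), and within nondeprived layers alone by 1.53 (SE 0.61, adjusted p = 0.297, limma). The call was lost with signals under 50 set to 50, where the difference was 0.62 (adjusted p = 0.0603, limma), with the GAPDH ratio as a covariate, where it was 1.30 (adjusted p = 0.116, limma), and in either animal alone. Between outer and inner parvocellular layers the difference was -0.06 (SE 0.39, adjusted p = 0.973, limma).

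BDKRB1, the kinin receptor that injury induces, stayed mostly below the minimum. One probe set, MmugDNA.12150.1.S1_at, reached 100 in 1 array (contralateral layer 3, nondeprived, 2 months, 106), and otherwise read 4.35 to 83.0. The other, MmugDNA.18486.1.S1_s_at, reached 100 in 2 arrays, both of deprived layers, with 136 in layer 3 of the ipsilateral LGN at 4 months and 126 in the magnocellular array that stood apart. The groups overlapped for both. The log2 differences between deprived and nondeprived layers were -0.18 (SE 0.63) and -0.48 (SE 0.50) in parvocellular layers and -0.47 (SE 0.97) and 0.83 (SE 0.78) in magnocellular layers; the magnocellular ones were -0.86 and 0.62 without the array that stood apart. Neither passed between layer classes, at -0.34 (SE 0.60, adjusted p = 0.835) and 0.38 (SE 0.51, adjusted p = 0.771), nor between outer and inner layers, at -0.94 (SE 0.60, adjusted p = 0.640) and -0.27 (SE 0.50, adjusted p = 0.894, all limma).

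**Figure D4:**
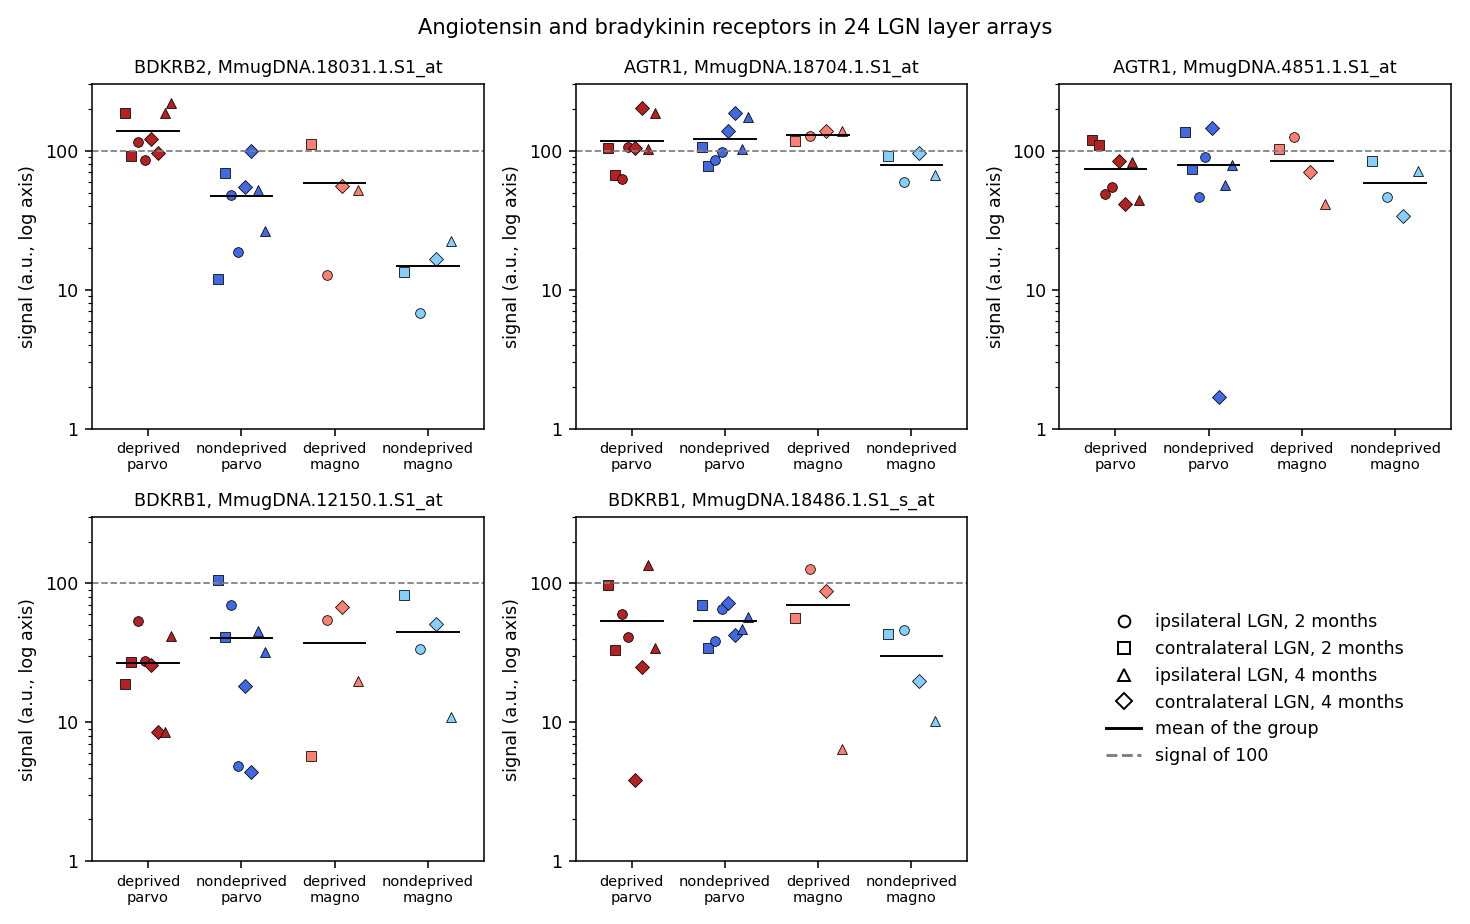
Signal (arbitrary units, log axis) of BDKRB2, the 2 AGTR1 probe sets and the 2 BDKRB1 probe sets in deprived and nondeprived parvocellular and magnocellular arrays; symbols are arrays, lines are group means and the dashed line is a signal of 100. Deprived parvocellular arrays of BDKRB2 lie between 85.7 and 219, and the magnocellular groups of AGTR1 MmugDNA.18704.1.S1_at lie on either side of 100.

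**Figure D5:**
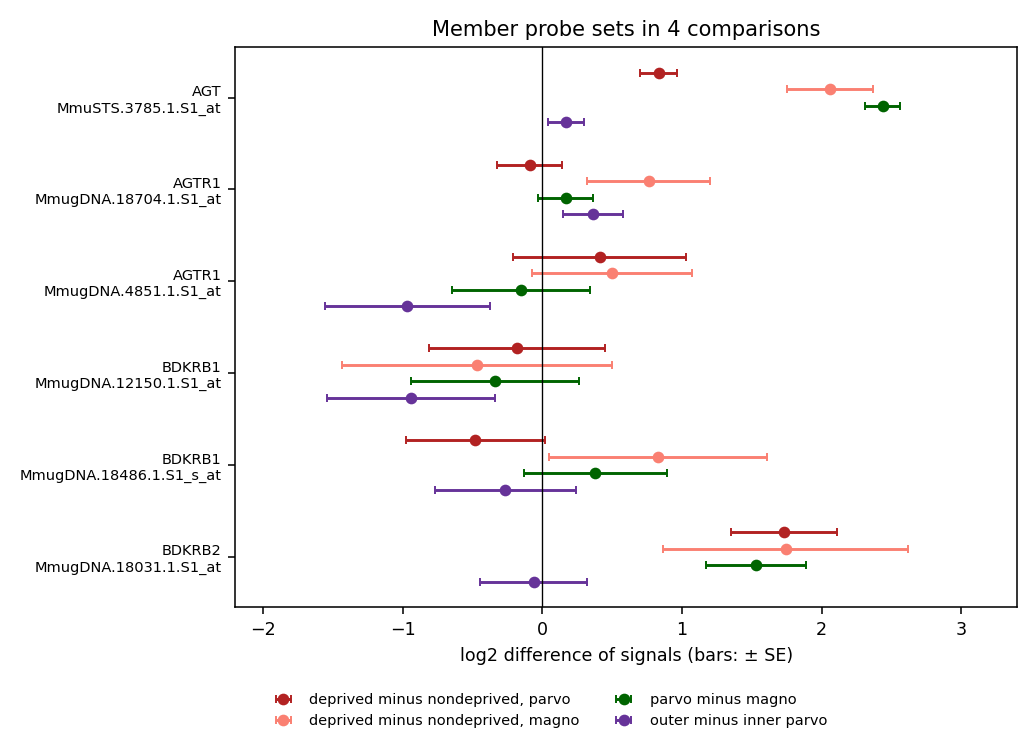
Log2 difference of signals (bars, SE) of the 6 tested member probe sets in 4 comparisons: deprived minus nondeprived in parvocellular and in magnocellular layers, parvocellular minus magnocellular, and outer minus inner parvocellular layers. AGT (0.83, 2.06, 2.44) and BDKRB2 (1.73, 1.74, 1.53) are positive in the first 3 comparisons. AGTR1 MmugDNA.18704.1.S1_at lies at -0.09, 0.76, 0.17 and 0.36. The other AGTR1 probe set and the BDKRB1 probe sets lie between -0.97 and 0.83, with SEs of 0.49 to 0.97, and are negative for outer minus inner layers.

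The other genes of the 2 peptide systems that were tested, mainly peptidases that make or degrade angiotensins and kinins, with the kininogen gene KNG1 and the plasma kallikrein gene KLKB1, gave no call. Renin and its receptor were not among those tested. Of 34 listed genes 27 had a probe set and 24 were tested, and none passed in any of the 4 comparisons; 1, 1, 2 and 1 had an unadjusted p under 0.05 in the order deprivation in parvocellular layers, deprivation in magnocellular layers, layer class and outer against inner layers. The median log2 difference of the 24 genes was -0.05 for deprivation in parvocellular layers and 0.02 in magnocellular layers, against -0.0024 and 0.05 for all genes. PRCP, a lysosomal carboxypeptidase that trims angiotensin II, had the smallest p for deprivation in this list. In parvocellular layers its signal was 2248 to 3493 where deprived and 3074 to 4194 where nondeprived, a log2 difference of -0.30 (SE 0.11, adjusted p = 0.234, limma), and it was lower in the deprived layers of 4 of 4 LGNs. In magnocellular layers PRCP averaged 2363 ± 755 in deprived and 4068 ± 804 in nondeprived layers (SD, n = 4 each), a log2 difference of -0.83 (SE 0.26, adjusted p = 0.836, limma), again lower in 4 of 4 LGNs. The gene of MME, neprilysin, which degrades angiotensins and kinins, is counted here by its brightest probe set, at -0.06 for deprivation in parvocellular layers (SE 0.14, adjusted p = 0.927, limma). Another MME probe set fell by 1.28 on the log2 scale there (SE 0.29, adjusted p = 0.0355, limma). The dimmest one, with a mean signal of 59.4, differed by -0.61 (SE 0.36, adjusted p = 0.572, limma). The MME probe sets thus share a sign in parvocellular layers and disagree in size.

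Of 27 listed genes of Gq and receptor signaling 17 had a probe set and 14 were tested. None passed for deprivation in either layer class, with 3 and 1 at an unadjusted p under 0.05 in parvocellular and magnocellular layers. ITPR3, an inositol trisphosphate receptor of the endoplasmic reticulum, came closest, with parvocellular signals of 5.69 to 74.7 where deprived and 31.9 to 149 where nondeprived, a log2 difference of -1.85 (SE 0.51, adjusted p = 0.094, limma) on signals mostly below the minimum. ARRB1, a β-arrestin that uncouples activated receptors, averaged 538 ± 124 in deprived and 408 ± 69.4 in nondeprived parvocellular layers (SD, n = 8 each), a log2 difference of 0.38 (SE 0.14, adjusted p = 0.259, limma), and 557 ± 87.0 in deprived and 357 ± 108 in nondeprived magnocellular layers (SD, n = 4 each), 0.68 (SE 0.31, adjusted p = 0.836, limma); it was higher in the deprived layers of 4 of 4 LGNs in both classes. PLCB3, a phospholipase C that Gq activates, differed by 0.51 (SE 0.21, adjusted p = 0.340, limma) in parvocellular and 0.76 (SE 0.36, adjusted p = 0.836, limma) in magnocellular layers.

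Between layer classes 2 of the 14 signaling genes passed, both lower in parvocellular layers, where 2.14% of all genes passed as lower. ITPR1, the inositol trisphosphate receptor that releases calcium in neurons, averaged 638 ± 191 in deprived and 595 ± 109 in nondeprived parvocellular layers, and 1619 ± 436 in deprived and 1392 ± 344 in nondeprived magnocellular layers (SD). ITPR1 was thus lower in parvocellular layers, with a log2 difference of -1.30 (SE 0.17, adjusted p = 2.65e-05, limma), and 4 of its 5 tested probe sets passed in that direction. PRKCB, a calcium-dependent protein kinase C, was lower as well, at -0.46 (SE 0.12, adjusted p = 0.0247, limma), with 5153 to 8893 in parvocellular and 6316 to 12355 in magnocellular layers. PLCB4 had the third smallest p of the list here, at -0.29 (SE 0.11, adjusted p = 0.156, limma). Between outer and inner parvocellular layers none of the 14 passed, with 3 at an unadjusted p under 0.05: PLCB4 at 0.33 (SE 0.10, adjusted p = 0.521), ARRB2, another β-arrestin, at -0.36 (SE 0.14, adjusted p = 0.521) and PLCB2 at -0.35 (SE 0.15, adjusted p = 0.521, all limma).

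Genes whose pattern over the 24 arrays was most like that of a member were found by Pearson's correlation of log2 signals after removal of the LGN means, among 9450 genes with a mean signal of 100 or more; arrays share groups and animals, so these values are a description. For AGT the 5 nearest were DAPK1, a death-associated kinase (r = 0.94), ADAMTS3, a procollagen peptidase (r = 0.94), IGF2BP3, an RNA-binding protein (r = 0.93), ST8SIA4, which makes polysialic acid (r = 0.92), and the transcription factor MYCN (r = 0.92). ADAMTS3 averaged 2376 in deprived and 1677 in nondeprived parvocellular layers, and 794 in deprived and 262 in nondeprived magnocellular layers, the same order of means as AGT. Its groups overlapped, with up to 3260 in a nondeprived parvocellular array. For BDKRB2 the nearest were the kinase ALPK3 (r = 0.86), SPHKAP, an anchoring protein (r = 0.86), PAK5, a kinase of neurons (r = 0.85), ZNF799 (r = 0.83) and HNRNPH3 (r = 0.83). In parvocellular layers ALPK3 read 691 to 1160 where deprived and 274 to 732 where nondeprived, and in magnocellular layers 425 to 598 where deprived and 145 to 238 where nondeprived. For AGTR1 MmugDNA.18704.1.S1_at the correlations were lower, 0.73 to 0.78, for ZNF507, CREB5, DDX47, CEP152 and FANCL. ZNF507, CREB5, DDX47 and CEP152 shared with this AGTR1 probe set magnocellular groups that did not overlap, while those of FANCL overlapped. ZNF507 read 1839 to 2911 in deprived and 1219 to 1466 in nondeprived magnocellular layers. These genes were picked by their correlation over the same arrays, so that a shared separation is no separate support. Of all probe sets tested, 2.78% had every deprived magnocellular array above every nondeprived one.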

How the data were processed

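The deposited values are signal intensities that the authors computed with GCOS, on a linear scale in arbitrary units, 1 value per probe set for each of 24 arrays. GCOS versions, detection calls and change calls are not used here. Groups follow the sample labels. Of 52865 probe sets 99 controls were left out. In the platform annotation 24956 probe sets have 1 gene symbol, 361 have several and 27449 have none. Signals under 1 were set to 1 before log2. Deprived and nondeprived layers (16 parvocellular and 8 magnocellular arrays), parvocellular and magnocellular layers (24 arrays, with the condition and its interaction) and outer and inner parvocellular layers (16 arrays, with the condition) were compared with limma 3.58.1 in R 4.3.3, using lmFit and eBayes with a trend and the LGN as a fixed block. The LGN model takes the place of the study's change calls. P-values were adjusted by Benjamini and Hochberg over 37623 probe sets, with a threshold of 0.05. All members are named. Pathway genes are named when past the threshold or among the 3 smallest p of a comparison; the genes most like a member are the 5 most correlated ones, for members at 100 or more in at least 6 arrays. A gene with several probe sets is counted by the one with the highest mean log2 signal. GFAP and GLUL are named as the astrocyte markers past the threshold, and MME was added after its values were seen. Members and lists were chosen with earlier results of these data known. The models were tested on simulated data, where the one for deprivation in magnocellular layers did not recover the planted changes. No sequence is given.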

Additional observations from a re-analysis of the deposited data

Results flagged for a closer look

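One AGT signal lay far from the rest of its group. Nondeprived magnocellular layer 2 of the contralateral LGN at 2 months read 500.2, against 269, 290 and 295 in the other 3 nondeprived magnocellular arrays, a gap of 0.889 of the group's range. It was still below all 4 deprived magnocellular arrays. After the array that stood apart, this array had the highest GAPDH 3′ to 5′ ratio (14.3) and the lowest mean correlation (0.885). Whether array quality bears on its AGT signal was not tested. In all, 24 sets of member signals in a group were examined, and chance places about 1 in 20 groups past this bound.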

How the results depend on the processing

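The AGT difference kept its direction in every alternative run for deprivation and for layer class. AGT ranged over 0.73 to 0.94 for deprivation in parvocellular layers (0.74 to 0.90 when each array was left out in turn), 1.78 to 2.24 in magnocellular layers (1.89 to 2.28) and 2.37 to 2.55 between layer classes (2.38 to 2.53). For outer against inner layers it was positive in 27 of 28 alternatives, with an adjusted p of 0.189 to 0.991. BDKRB2 kept its direction for deprivation and layer class. With signals under 50 set to 50 it was 0.35 in magnocellular deprivation and 0.62 between layer classes (adjusted p = 0.0603, limma). The layer class call of BDKRB2 was also lost with the GAPDH ratio (1.30, adjusted p = 0.116), with the astrocyte marker sum, a covariate chosen after the data were seen (1.50, adjusted p = 0.0567), in the 2 months animal alone (1.61, adjusted p = 0.301) and in the 4 months animal alone (1.45, adjusted p = 0.105). With each array left out it was 1.31 to 1.78, with an adjusted p of 0.00225 to 0.0372. The cause was not tested; either animal alone has fewer arrays.

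Of the pathway genes past the threshold between layer classes, 2 in all, 1 remained after scaling to equal medians and 1 with eBayes without a trend (PRKCB lost), 0 in the 2 months animal alone, 2 in the 4 months animal alone (PRKCB lost, RGS4 gained), and 1 to 2 with each array left out. PRKCB was lost without nondeprived magnocellular replicate 2 or 4 or deprived magnocellular replicate 4. The astrocyte sum gave 4, adding PLCB4 and XPNPEP2, and gave 1 for deprivation in parvocellular layers, ITPR3. A fold rule modelled on the study's used the direction of pair ratios in place of its change calls. It asked for a mean ratio of 1.7 or more and 6 of 8 or 4 of 4 pairs in 1 direction. Of 38 pathway genes it counted 1 in parvocellular layers (ITPR3) and 1 in magnocellular layers (PRCP), against 0 and 0. Of all 37623 probe sets it counted 636 as higher and 659 as lower in parvocellular layers. In magnocellular layers these counts were 2095 and 487, so that the 2 genes do not set the pathway apart. Counts over all probe sets for deprivation in parvocellular layers moved from 365 to 25 after scaling to equal medians, to 15 without a trend, and to 7 and 1 in the animals alone, and lay between 136 and 457 with each array left out. In magnocellular layers 0 became 46 in the 4 months animal alone, 1 in the 2 months animal alone, 2 with the GAPDH ratio, and 6 and 9 without deprived or nondeprived magnocellular replicate 2. The calls for deprivation in parvocellular layers split into 220 higher and 145 lower, and 18 and 7 after scaling to equal medians. Between layer classes the split was 846 and 509, and 647 and 142 after that scaling. The replicate block, with the layer number within an animal in place of the LGN, left the AGT differences at 0.83 and 2.06 and the pathway counts at 0, and gave 133 calls over all probe sets in parvocellular layers; no such paired fit is possible for layer class or for outer against inner layers, which are constant within it. Members that stay under a mean signal of 100 have no value under that filter. Signals under 100 limit what AGTR1, BDKRB2, BDKRB1 and AGTR2 can show.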
